A study of Mus musculus with 36 samples.

Results

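The cytosolic ribosomal proteins are the protein part of the ribosome outside mitochondria. The genes analysed here were chosen by symbol, namely those that start with Rpl or Rps and a digit, together with Rpsa, Rplp0, Rplp1 and Rplp2, and without pseudogenes named with -ps and without the Rps6k kinases. This rule gave 93 genes in all 6 gene count tables of the series, out of 51413 gene identifiers common to the tables. Of the 93 genes, 55 belonged by symbol to the large subunit and 37 to the small subunit, and 86 were protein-coding in the annotation. The remaining symbol, Rps19bp1, names a binding protein and not a subunit, and 7 genes were typed as pseudogenes (Rpl32l, Rpl37rt, Rpl6l, Rps12l1, Rps3a2, Rps3a3 and Rps4l). The rule left out 289 -ps pseudogenes and 10 kinases, and it did not reach ribosomal protein genes with other symbols, such as Fau and Rack1.

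The study asked how a father's diet reaches the next generation through sperm RNA, in wild-type C57BL/6 mice (C57BL/6N in the study's methods). Cauda spermatozoa came from males fed for 2 weeks from 6 weeks of age on a high-fat diet (HFD, 60% of energy from fat) or a low-fat diet (LFD, 10%), with 3 libraries per diet. The study purified them by swim-up, treated them with a cell lysis buffer and kept samples in which the microscope showed no somatic cells. Morulae came from oocytes fertilised in vitro with sperm of HFD-fed or LFD-fed males and cultured for 72 h, with 3 libraries per diet, and round spermatids were enriched from testes of males on both diets with a density gradient (6 libraries). Liver, epididymal white adipose tissue (eWAT) and gastrocnemius muscle (6 libraries each) are labelled with the HFD. In the study this was the 2-week diet of the fathers, and the offspring themselves ate chow all their lives. The study sorted such male offspring into HFD tolerant and HFD intolerant animals. The columns of the last 4 tables name neither a diet nor a class, so each of these tissues was used whole and diet was compared in sperm and morula alone. Sperm, round spermatid and morula libraries were made with a Nextera kit that samples whole transcripts, and the offspring libraries with QuantSeq 3' FWD, which reads the 3' end of a transcript. For both reasons levels were compared within each of these kits and not between them.

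A ribosome carries a single copy of nearly every ribosomal protein, with the acidic stalk proteins P1 and P2 as the known exception, and their mRNAs are known for a tract of pyrimidines at the very start (5' TOP), through which mTOR signalling sets their translation. In the male germ line the X chromosome is silenced at meiosis, and several X-linked housekeeping genes have autosomal copies that are expressed there. Among the ribosomal proteins, Rpl10 has Rpl10l and Rpl39 has Rpl39l, while Rpl3l is the striated muscle copy of Rpl3. Mature spermatozoa are largely silent in cytosolic translation, and the RNA they hold is mostly left from spermatogenesis or acquired in the epididymis.

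The coding sequences of the pairs on which the germ line results turn are shown to make visible how far they can be told apart by reads (GENCODE M21 transcripts, GRCm38). Capitals mark the bases at which the members of a pair differ. Rpl39 (chrX:37082520-37085402, minus strand) and Rpl39l (chr16:10170226-10174911, plus strand) have coding sequences of 156 bases that differ at 23 bases (85.3% identity). Rpl10 (chrX:74270812-74273135, plus strand) and Rpl10l (chr12:66283379-66284401, minus strand) have coding sequences of 645 bases that differ at 98 bases (84.8% identity), and the first 150 bases, with 25 differences, are printed.
Rpl39: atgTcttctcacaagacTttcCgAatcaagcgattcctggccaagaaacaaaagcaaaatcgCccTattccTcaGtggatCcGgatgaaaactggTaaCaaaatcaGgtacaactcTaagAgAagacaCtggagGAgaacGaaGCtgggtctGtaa
Rpl39l: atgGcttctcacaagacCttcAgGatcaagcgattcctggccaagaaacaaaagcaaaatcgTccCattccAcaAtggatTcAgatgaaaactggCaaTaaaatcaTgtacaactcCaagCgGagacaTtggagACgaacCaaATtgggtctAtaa
Rpl10: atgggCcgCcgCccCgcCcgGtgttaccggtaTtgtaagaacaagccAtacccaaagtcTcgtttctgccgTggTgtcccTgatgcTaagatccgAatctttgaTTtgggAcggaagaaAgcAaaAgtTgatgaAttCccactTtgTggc
Rpl10l: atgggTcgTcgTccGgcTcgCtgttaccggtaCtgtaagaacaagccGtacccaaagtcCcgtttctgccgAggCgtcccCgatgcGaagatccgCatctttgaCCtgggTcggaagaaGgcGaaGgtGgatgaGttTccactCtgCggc

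Of the 93 genes, 68 had an annotated RefSeq start (GRCm38.p6). At that position, on the transcript strand, 15 of the 68 (22.1%) carried a C followed by at least 4 bases that are each C or T, against 813 of 27025 genes of the same table (3.0%). The runs were 5 to 13 bases long, with a median of 8. The 4 windows below show the longest run, a stalk gene, and the genes with the lowest p in the diet comparisons of sperm and of morula, with 10 bases before the start, 20 from the start onward and the run in capitals. A match describes these letters only, and a start annotated a few bases away hides a run. The windows lie at chr14:18270967-18270996 (minus strand, Rpl15), chr7:141447641-141447670 (plus strand, Rplp2), chr3:90213629-90213658 (minus strand, Rps27) and chr7:118116128-118116157 (minus strand, Rps15a).
Rpl15: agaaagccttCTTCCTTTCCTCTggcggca
Rplp2: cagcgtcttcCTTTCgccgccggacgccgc
Rps27: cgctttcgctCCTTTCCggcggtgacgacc
Rps15a: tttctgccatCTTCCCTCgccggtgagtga

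The libraries held 2560219 to 4062321 counts in sperm, 20138842 to 31056066 in round spermatids, 11471251 to 12153141 in morula, 2036237 to 2552454 in liver, 1338149 to 4055537 in eWAT and 369772 to 2749920 in gastrocnemius. No library was a duplicate of another, since replicates differed by more than counting noise in every tissue. Counts from mitochondrial DNA made up 78.1 to 84.3% of sperm libraries of HFD and 43.5 to 64.7% of those of LFD, against 22.8 to 26.9% in morula and 1.96 to 2.38% in round spermatids. Markers of epididymal epithelium, such as Crisp1 and Spink8, summed to 9678 to 18209 counts per 1000000 nuclear counts in HFD sperm and to 12540 to 60812 in LFD sperm, with Lcn8 at 0 in every HFD library and in LFD libraries l1000 and l4000, and 4 of the 8 listed genes above 3 counts in every library of either diet. Late spermatid markers summed to 25978 to 52404 and 7797 to 27866, respectively. All 7 listed markers of embryo, hepatocyte, adipocyte and muscle were found in morula, liver, eWAT and gastrocnemius, and all 9 late spermatid markers in round spermatids. All 8 markers of spermatogonia and spermatocytes and all 8 of Sertoli and Leydig cells were also above 3 counts in every round spermatid library. Per 1000000 nuclear counts they summed to 844 to 1010 and to 27.1 to 37.7 there, against 13228 to 16378 for late spermatid markers. In bulk samples such as these, fewer cells of a type and less RNA per cell cannot be told apart, and p-values measure the spread between libraries, since the labels do not say for every table that each library is a separate animal.

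The share of all counts that fell on the 93 genes differed between tissues of the same kit. In the Nextera libraries it was 2.57% ± 0.116 (SD, n = 6) in morula, 0.744% ± 0.0164 in round spermatids and 0.170% ± 0.113 in sperm. Among the 3' libraries it was 0.369% ± 0.122 in eWAT, 0.218% ± 0.0135 in gastrocnemius and 0.185% ± 0.0324 in liver. Of all counts, morula lay above round spermatids and round spermatids above sperm in every library, while the ranges of liver and gastrocnemius overlapped. In eWAT, library S17 stood at 0.608% and the other 5 libraries at 0.2655 to 0.3634%. Of nuclear counts alone the share was 3.43% in morula, 0.760% in round spermatids and 0.520% ± 0.236 in sperm, where library l1000 (0.823%) lay above all round spermatid libraries. Among the 3' libraries the nuclear share was 0.302 to 0.412% in gastrocnemius, above every liver library (0.184 to 0.299%). In eWAT it was 0.325 to 0.731%, a range that overlapped that of gastrocnemius.

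In sperm the summed share separated the diets only when mitochondrial counts stayed in the total. It was 0.105, 0.0747 and 0.0355% of all counts in the HFD libraries h1000, h3000 and h4000, and 0.301, 0.218 and 0.284% in the LFD libraries l1000, l2000 and l4000. As a share of nuclear counts the same libraries stood at 0.665, 0.341 and 0.169% for HFD and at 0.823, 0.618 and 0.502% for LFD, where h1000 lay within the LFD range. The mitochondrial share, given above, moved with diet in the same libraries. So did the sums of leukocyte markers (278.6 to 426.5 counts per 1000000 nuclear counts in HFD and 171.5 to 239.3 in LFD) and of erythroid markers (593.6 to 1591 and 57.4 to 556.8), whose part in the sperm results was not tested. In morula the summed shares of HFD (2.42 to 2.64%) and LFD (2.44 to 2.72%) overlapped.

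**Figure D1:**
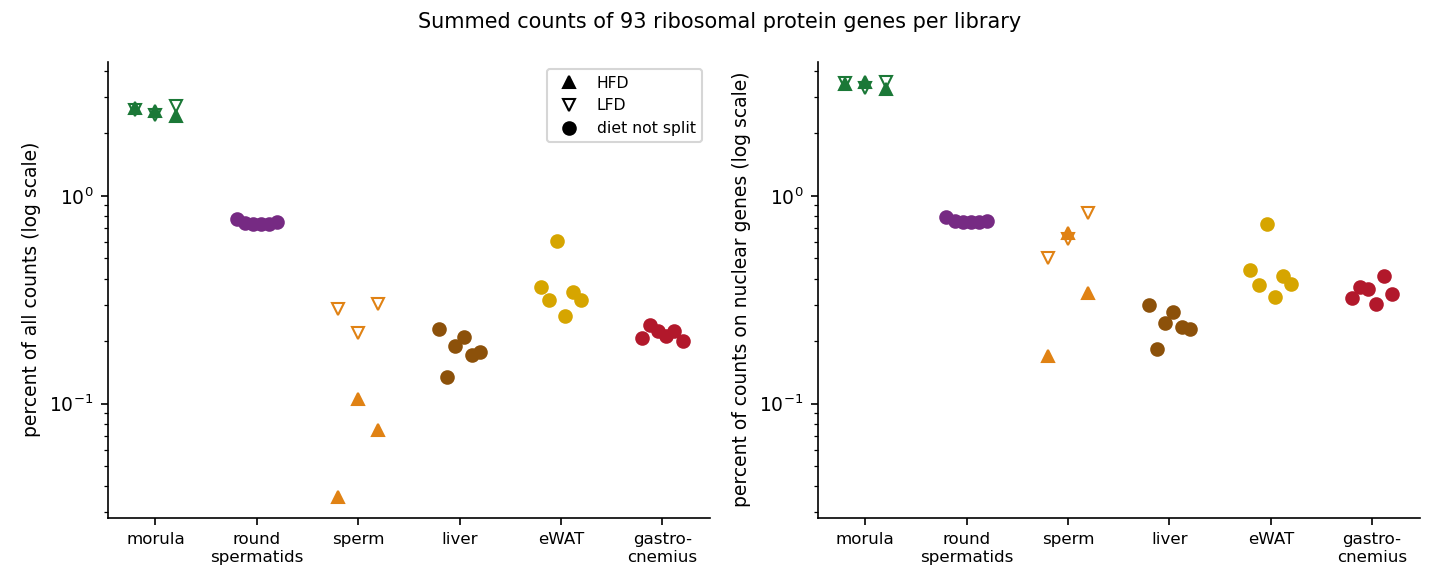
Summed counts of the 93 ribosomal protein genes in each library as a percentage of all counts (left) and of nuclear counts (right), on log axes; filled triangles are HFD, open triangles LFD, and circles libraries whose diet or class was not split. All sperm libraries of HFD lie below those of LFD on the left (0.0355 to 0.105% against 0.218 to 0.301%), and the diets overlap on the right.

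Large and small subunit genes did not hold the same balance in every tissue. The ratio of large to small subunit counts was 1.38 ± 0.00924 in morula, 1.62 ± 0.00721 in round spermatids and 1.32 ± 0.0724 in sperm, so that round spermatids lay above both by more than the spread between libraries. The most abundant genes also differed. In TPM (counts divided by exon length and scaled to a sum of 1000000 per library), morula was led by Rpl4 (1397), Rps3a1 (1315) and Rps4x (930) and round spermatids by Rpl36 (772), Rplp0 (671) and Rps24 (642), while Rpl4 (207) and Rplp1 (159) were highest in sperm. The exon length differed between tables for 15 of the 93 genes. That of Rps24 is 840 bases in the round spermatid table and 6256 in the others, and its mean was 168 TPM in morula and 6.59 TPM in sperm, so its place is not comparable between tissues.

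Round spermatids were compared with morula to ask which ribosomal protein genes differ between a fraction enriched in haploid male germ cells and the embryo. The study's methods call the round spermatid RNA libraries Ribo-minus and do not say so of morulae or sperm. In comparisons with round spermatids, RNA selection and tissue thus cannot be told apart. Of the 93 genes, 92 passed the filter on low counts, and 76 were lower and 6 higher in round spermatids (edgeR, adjusted p under 0.05), where 31.2% of the 20345 genes tested were lower and 55.4% higher. The median log2 fold change of the 92 genes was −2.16, against 1.36 for all genes tested. In 78 genes every round spermatid library lay below every morula library and in 6 above, against 30.2% and 54.6% of all genes tested. The 10 genes not called included the stalk genes Rplp0 (−0.38 ± 0.20 SE, adjusted p = 0.0856) and Rplp1 (−0.33, adjusted p = 0.212).

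**Figure D2:**
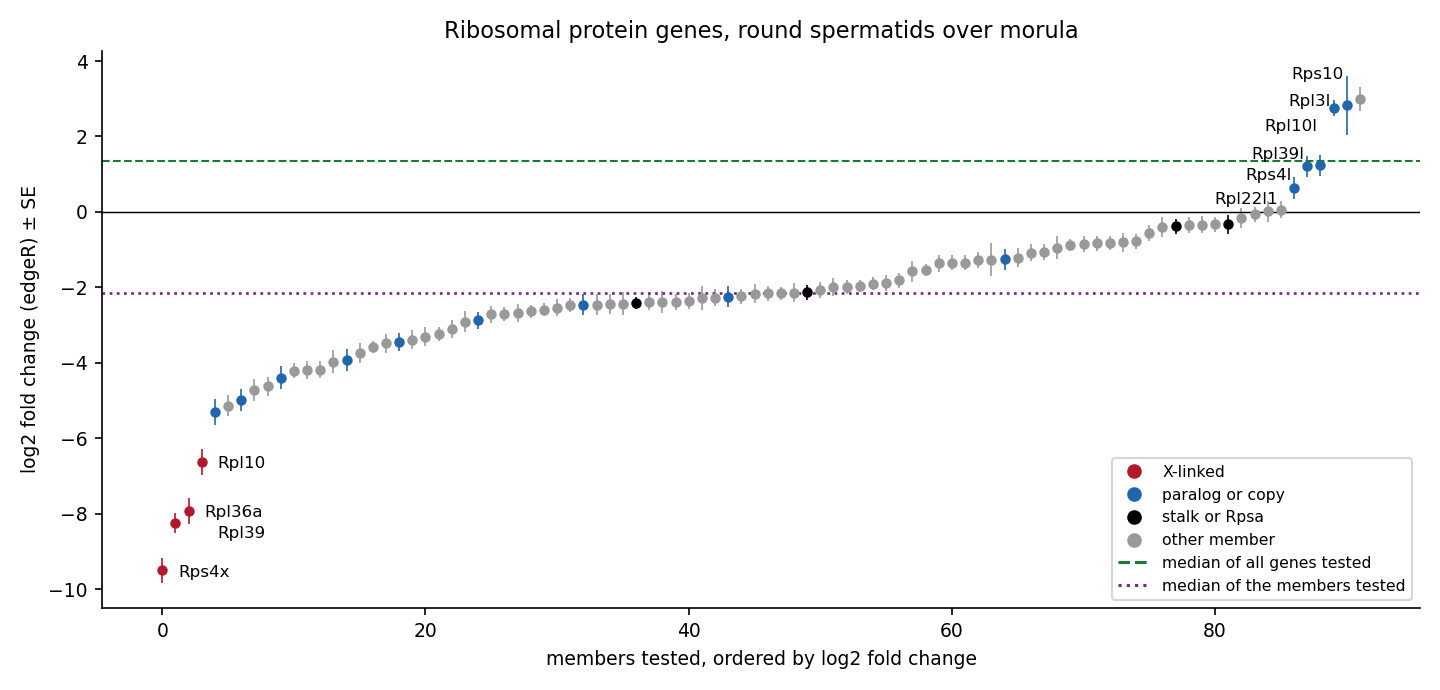
Log2 fold change of round spermatids over morula with its standard error for the 92 ribosomal protein genes tested, ordered by size; the dashed line is the median of all genes tested (1.36) and the dotted line that of the 92 genes (−2.16). Rps4x, Rpl39, Rpl36a and Rpl10 stand at the low end (−9.50 to −6.63), and Rps10, Rpl3l and Rpl10l at the high end (3.00 to 2.76).

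The 4 X-linked members showed the largest falls. Rps4x, the X-linked form of the small subunit protein S4, was at 1.32, 1.65 and 2.90 TPM (lowest, median and highest of 6 libraries) in round spermatids and at 798, 940 and 1057 TPM in morula. Its log2 fold change was −9.50 ± 0.32 (SE, edgeR adjusted p = 4.63e-15). No library of one tissue came near the range of the other.

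Rpl39, which encodes a small protein of the peptide exit tunnel, was at 0.883, 1.43 and 2.38 TPM in round spermatids and at 279, 309 and 365 TPM in morula (log2 fold change −8.25 ± 0.27, edgeR adjusted p = 3.71e-15). Rpl36a, a large subunit gene (chrX:134585654-134588062, plus strand), was at 1.85, 2.65 and 3.75 against 376, 449 and 505 TPM (−7.93 ± 0.34, edgeR adjusted p = 1.04e-13). Rpl10, whose protein joins the large subunit late, in the cytoplasm, was at 3.99, 6.18 and 7.89 against 359, 390 and 421 TPM (−6.63 ± 0.34, edgeR adjusted p = 8.12e-13). The 4 genes thus lay below 8 TPM in every round spermatid library and at 279 TPM or more in every morula library. Among the other 685 X-linked genes tested, 315 (46%) were lower in round spermatids with a median log2 fold change of −0.01, and among the 19568 other genes elsewhere 30.5% were lower with a median of 1.42. Rps3a3, a processed pseudogene (−5.30), and Rps3 (−5.14) were the next largest falls, and neither lies on the X chromosome.

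The autosomal copies of 3 of these genes rose. Rpl10l was at 344, 389 and 433 TPM in round spermatids and at 28.3, 38.2 and 48.6 TPM in morula (log2 fold change 2.76 ± 0.21, edgeR adjusted p = 2.28e-10). Rpl39l was at 348, 447 and 477 against 105, 119 and 133 TPM (1.23 ± 0.28, edgeR adjusted p = 0.000401). Rps4l (chr6:148354656-148355598, plus strand), which the annotation types as a transcribed processed pseudogene, was at 170.4, 191.5 and 200.8 against 46.4, 56.0 and 60.01 TPM (1.205 ± 0.28, edgeR adjusted p = 0.000531). In mean TPM, Rpl10l in round spermatids stood close to Rpl10 in morula (389 against 393), Rpl39l above Rpl39 (423 against 310) and Rps4l below Rps4x (189.4 against 930). The changes of Rpl39l and Rps4l lay below the median of all genes tested (1.36), and neither passed when tested against a log2 fold change of 1 (edgeR adjusted p = 0.0987 and 0.118).

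As a share of the summed TPM of both genes, Rpl10l made up 98.5% in round spermatids and 8.87% in morula, Rpl39l 99.6% and 27.8%, and Rps4l 99.0% and 5.62%. Rpl36al (chr12:69182731-69184083, minus strand), the autosomal copy of Rpl36a, behaved otherwise. It fell too (log2 fold change −3.45), from a median of 21.97 TPM in morula to 2.98 TPM in round spermatids, so its share of 52.4% in round spermatids rests on low levels of both genes.

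**Figure D3:**
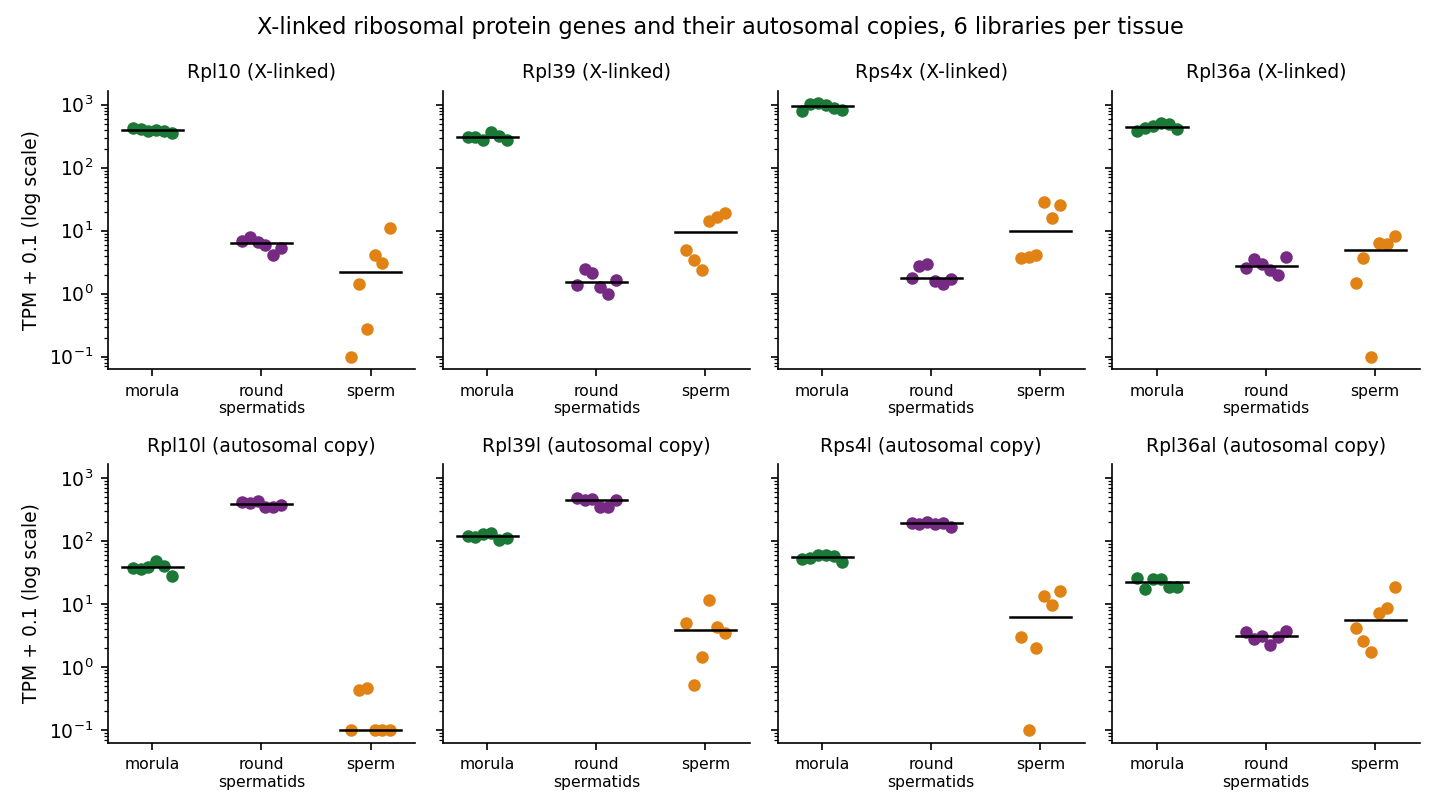
TPM plus 0.1 on a log axis for the X-linked Rpl10, Rpl39, Rps4x and Rpl36a (top) and their autosomal copies Rpl10l, Rpl39l, Rps4l and Rpl36al (bottom) in 6 libraries each of morula, round spermatids and sperm, with the median as a line. The X-linked genes are at 279 to 1057 TPM in morula and below 8 in round spermatids, where Rpl10l, Rpl39l and Rps4l lie between 170.4 and 477.

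How well reads separate these genes was measured as the share of stretches of 75 bases in the gene's transcript that occur in no transcript of another gene. It was 99.7% for Rpl10l, 100% for Rpl39l, 93.3% for Rps4l, 92.4% for Rpl39, 47.1% for Rps4x, 15.4% for Rpl36a and 15.1% for Rpl10. Rpl36a and Rpl10 were at medians of 449 and 390 TPM in morula. How reads with several matches were counted is not given in the sources used here, so their levels and those of other genes with many near-identical copies are uncertain.

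Among the remaining genes with a paralog, the pairs did not move alike. Rpl22l1 rose slightly (log2 fold change 0.64 ± 0.29, edgeR adjusted p = 0.0477) to 22.4 ± 5.28 from 9.48 ± 1.45 TPM (SD, n = 6), while Rpl22 fell (−3.97) to 16.1 ± 2.10 from 168 ± 15.8 TPM. That call was lost with library sizes from nuclear genes (edgeR adjusted p = 0.248), with library totals (0.0653) and with limma-voom (0.138), and over all alternatives its adjusted p ranged from 2.87e-07 to 0.758. Rps27 and Rps27l both fell (−0.96 and −2.87), from 338 ± 44.8 to 262 ± 18.9 TPM and from 320 ± 18.3 to 66.0 ± 8.27 TPM. With library totals the call of Rps27 was lost (edgeR adjusted p = 0.263, over all alternatives 4.27e-08 to 0.359). Rpl7 and its paralog Rpl7l1 fell by like amounts (−1.90 and −2.25).

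Rpl3, a core protein near the peptidyl transferase centre, fell (−3.58) from a median of 408 TPM in morula to 53.0 TPM in round spermatids. Rpl3l was called higher (2.82 ± 0.78, edgeR adjusted p = 0.00225) with only 4 counts over all morula libraries, and it stayed at 0.516 to 1.2 TPM in round spermatids, 1.49% of the sum of the pair. Rps10, a small subunit protein of the mRNA entry side, showed the largest rise (3.00 ± 0.32, edgeR adjusted p = 3.94e-08), with 57.3 ± 2.93 TPM in round spermatids and 4.05 ± 1.56 TPM in morula. The tables differ for this gene: its exon length is 1937 bases in the round spermatid table and 2311 in the others, and a readthrough gene that overlaps it is listed with 0 counts in morula and sperm and is not listed in the round spermatid table. The part of that annotation in the rise of Rps10 was not tested. The remaining stalk gene, Rplp2, fell (−2.13) from 197 ± 26.9 to 67.4 ± 7.23 TPM. Rpsa, a small subunit gene that also codes for the laminin receptor, fell (−2.41) from 223 ± 11.6 to 62.9 ± 5.54 TPM.

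Sperm was compared with round spermatids to ask which of these mRNAs remain in the mature cell. Of 92 genes tested, 62 were lower and 15 higher in sperm (edgeR, adjusted p under 0.05), against 51.9% lower and 23.4% higher of all 20345 genes. The median log2 fold change was −1.65 for the 92 genes and −1.24 for all genes tested. Groups did not overlap in 56 lower and 11 higher genes (45.6% and 10.8% of all genes). Sperm was read single-ended and round spermatids paired-ended, so read layout and cell type cannot be told apart in this comparison. Without library h4000, which held the fewest ribosomal protein counts, 58 genes were lower and 22 higher, and with LFD sperm alone 59 and 21, while the calls over all genes went from 15325 to 15823 and 16716.

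The copies that were high in round spermatids fell in sperm. Rpl10l had 2 counts in all sperm libraries together against 25309 in round spermatids, a ratio of 696 (95% counting interval 192.6 to 5747). Rpl39l was at 0.412, 3.83 and 11.7 TPM (lowest, median, highest) and Rps4l at 0, 6.25 and 15.8 TPM in sperm, and both fell (log2 fold change −4.74 and −3.11). Rps28 had 3 counts against 14923, a ratio of 273.6 (93.6 to 1327), and Rps29, Rps6 (an S6 kinase target) and Rps7 fell by 7.17, 6.17 and 6.05 on the log2 scale. Of these, Rps28, Rps29, Rps6 and Rps7 have 59.8, 69.3, 15.9 and 41.6% unique stretches of 75 bases. Over the 77 protein-coding members that are neither a paralogous copy nor Rps19bp1, the rank correlation of that share with mean TPM was 0.54 in sperm and 0.15 in round spermatids, and its part in the falls was not tested. Rps28 and Rps29 are among the shortest ribosomal proteins.

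On the other side, Rps4x (log2 fold change 4.45), Rpl39 (4.38) and Rpl36a (2.31) were higher in sperm than in round spermatids, as were Rpl3l (5.08 ± 0.53, edgeR adjusted p = 4.66e-08), Rps3 (3.36), Rps27rt (3.11), Rpl36al (2.87) and Rpl22 (2.70). Rpl10, the remaining X-linked member, did not pass (0.54 ± 0.33, edgeR adjusted p = 0.145), with sperm libraries on both sides of the round spermatids. Rps3 and Rpl22 reached 57.5 ± 42.3 and 28.5 ± 16.5 TPM in sperm (SD, n = 6), and the means of the X-linked genes and of Rpl3l were lower. Rps4x was at 3.62, 3.78 and 4.05 TPM in HFD libraries h1000, h3000 and h4000 and at 28.2, 15.8 and 25.2 TPM in LFD libraries l1000, l2000 and l4000. Rpl39 was at 4.74, 3.34 and 2.30 TPM and at 13.9, 16.5 and 18.8 TPM in the same order. TPM counts mitochondrial transcripts in its total, and both genes are lower in all HFD libraries on that scale, while in TMM CPM the diets overlapped for both. Rpl3l was at 1.38, 2.50 and 6.70 TPM in HFD and 18.1, 2.15 and 15.5 TPM in LFD libraries, and its groups overlapped. Rpl3l made up 55.1% ± 22.2 (SD, n = 6) of the sum of Rpl3 and Rpl3l in sperm, with libraries at 21.3 to 80.5%. Of their stretches of 75 bases, 16.8% are unique in Rpl3 and 100% in Rpl3l. The epididymal marker levels given above move in part with the same libraries, and their part in these rises was not tested. Of the other X-linked genes 288 were higher and 293 lower (42.8%), with a median of −0.40, against a median of −1.24 for genes elsewhere.

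The effect of diet on sperm was tested on 56 of the 93 genes, since 37 had too few counts. None was called (edgeR, adjusted p under 0.05), and none of all 8643 genes was (0%). At an unadjusted p under 0.05, 0 of the 56 genes passed against 13% of all genes (8.33% higher and 4.65% lower in HFD). DESeq2 also called 0 of the 56 genes, and 295 genes in all. By sign 40 genes were lower and 16 higher in HFD, with a median log2 fold change of −0.25 against −0.07 for all genes, and the median standard error of a gene was 0.669. This median was set by single libraries, at −0.66 without h1000 and at 0.00 without l1000. Changes no larger than this error were not detectable in single genes with these libraries, whose replicates differed by 18.9 times or more the variance of counting noise.

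The lowest p in sperm was that of Rps27, whose protein holds a zinc finger. It was at 1.94, 1.38 and 0 counts per 1000000 after TMM scaling (TMM CPM) in HFD libraries h1000, h3000 and h4000 and at 8.14, 4.00 and 3.33 in LFD libraries l1000, l2000 and l4000. The log2 fold change was −2.16 ± 1.08 (edgeR adjusted p = 0.424). All HFD values lay below all LFD values, but the levels are a few counts. Rpl23, also among the lowest p, stood at −1.004 (edgeR adjusted p = 0.584). Diets did not overlap in 4 genes, Rps27, Rpl10a (−1.16), Rpl7a (−1.003) and Rpl18 (−0.83), all lower in HFD, and in none that were higher, against 12.3% and 8.12% of all genes.

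The largest estimate in the other direction was that of Rpl35a (0.63 ± 0.79, edgeR adjusted p = 0.789), followed by Rpl22 (0.48 ± 0.60, adjusted p = 0.788), which was at 116, 42.7 and 19.0 TMM CPM in HFD and 56.3, 42.7 and 28.3 in LFD libraries in the same order. The HFD values of Rpl22 spread on both sides of the LFD values. Of the X-linked genes, Rpl10 stood at −1.52 ± 1.09 (edgeR adjusted p = 0.603), Rps4x at −0.64, Rpl39 and Rpl36a at −0.30. The stalk genes Rplp0, Rplp1 and Rplp2 stood at −0.26, −0.21 and −0.25, and Rpl3l at 0.35 ± 0.93 (adjusted p = 0.916). None of these passed at an unadjusted p under 0.05. Scaled by library totals in place of TMM, 27 genes were lower in HFD with a median of −1.93, while 3266 of all 8643 genes were called and the median of all genes moved to −1.82.

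In morulae 91 of the 93 genes were tested for the diet of the father. None was called, nor was any of the 13447 genes (0%, edgeR, adjusted p under 0.05), and DESeq2 called 0 of the 91 and 18 genes in all. At an unadjusted p under 0.05, 6 genes were lower in HFD and 0 higher, against 2.83% and 3.55% of all genes (6.59% of the 91 in either direction against 6.38%). The median log2 fold change was −0.05 against 0.01 for all genes, with 62 of 91 estimates negative and a median standard error of 0.0990.

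Rps15a, a small subunit gene, had the lowest p. It was at 387, 360 and 380 TMM CPM in HFD libraries MH5, MH6 and MH7 and at 442.5, 452 and 423 in LFD libraries ML1, ML2 and ML3. The log2 fold change was −0.23 ± 0.08 (edgeR adjusted p = 0.688). Every HFD library of Rps15a thus lay below every LFD library. The others with an unadjusted p under 0.05 were the pseudogene Rps3a3 (−0.74), Rps29 (−0.25), Rps25 (−0.21), Rpl38 (−0.21) and Rpl12 (−0.19). Rps10 had the highest estimate (0.75 ± 0.36, edgeR adjusted p = 0.769), with 4.77, 6.06 and 7.38 TMM CPM in HFD and 3.18, 4.87 and 2.74 in LFD libraries, which overlapped. Diets did not overlap in 5 genes lower in HFD (among them Rps15a, Rps3a3, Rpl12 and Rps20) and in 0 higher, against 6.18% and 5.94% of all genes.

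The diet effect was also compared between morula and sperm by an interaction term over 92 genes. None was called (edgeR, adjusted p under 0.05, smallest 0.266), against 1 of 15416 genes (0.00649%, lower). At an unadjusted p under 0.05 the morula effect was higher in 6 genes and lower in 3, against 6.6% and 5.41% of all genes. The joint filter also let in genes with too few counts in sperm, where only 56 genes were tested alone. For such genes the term could not show whether the effects differ. Estimates over the 92 genes reached from −6.04 to 7.43.

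**Figure D4:**
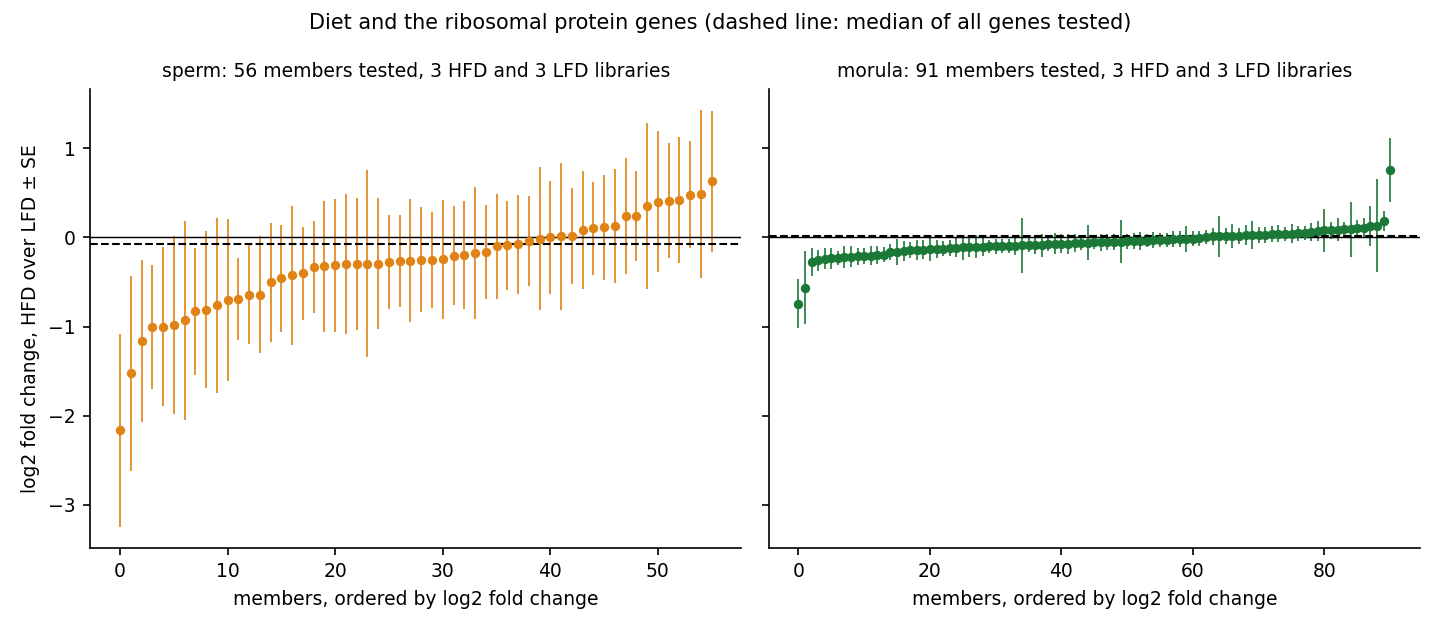
Log2 fold change of HFD over LFD with its standard error for the 56 ribosomal protein genes tested in sperm (left) and the 91 tested in morula (right), ordered by size; the dashed line is the median of all genes tested. Estimates reach from −2.16 (Rps27) to 0.63 (Rpl35a) in sperm and from −0.74 (Rps3a3) to 0.75 (Rps10) in morula, and none passed the threshold.

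In the offspring tissues the 3' reads are 50 bases long, and 53 of the 93 genes passed the filter. In TMM CPM, which is a level per tag and not per length, Rpl4 led in every tissue (means of 399 in liver, 374 in eWAT and 517 in gastrocnemius). Rpl10, Rps4x and Rps6 had at most 5 counts over all 6 libraries of each tissue, and Rpl10l and Rpl39l at most 10. Among the same 77 genes (without copies and Rps19bp1), 19 had under 20% unique stretches of 50 bases at the 3' end, of which 8, 6 and 9 had no more than 3 counts in any library of liver, eWAT and gastrocnemius, against 2, 1 and 4 of 27 genes with at least 90%. Rpl10 and Rpl36a had 0% and Rps4x 37.8%. The part of shared sequence in these low values was not tested.

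Liver, eWAT and gastrocnemius were compared to ask which ribosomal protein genes differ by tissue. Rpl3l (chr17:24727820-24736143, plus strand) separated muscle from both others. It was at 335, 410 and 472 TMM CPM (lowest, median, highest) in gastrocnemius, 0, 0.509 and 3.23 in liver and 0, 1.21 and 3.60 in eWAT. The lowest muscle library thus lay far above every library of the other tissues. The log2 fold change was −8.72 ± 0.58 for liver over gastrocnemius (edgeR adjusted p = 4.37e-12) and −8.17 ± 0.51 for eWAT over gastrocnemius (edgeR adjusted p = 3.6e-12). In muscle it was the second most abundant member after Rpl4. Rpl3 itself had 6, 25 and 2 counts in all in liver, eWAT and gastrocnemius, so the pair could not be compared with these reads.

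**Figure D5:**
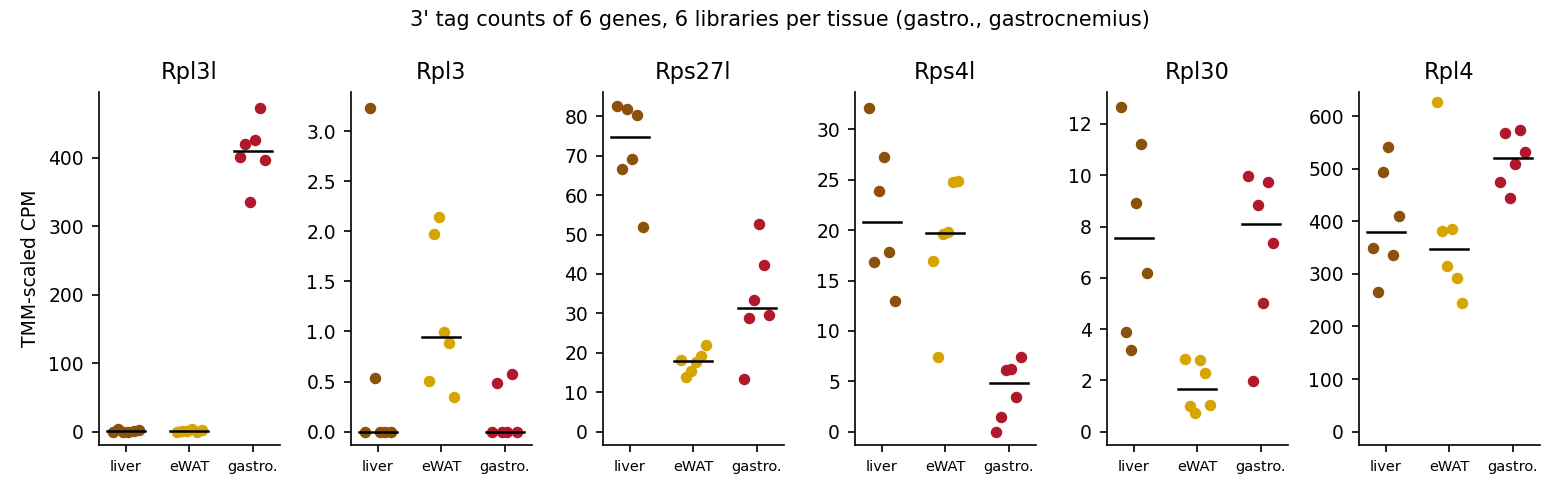
TMM CPM of Rpl3l, Rpl3, Rps27l, Rps4l, Rpl30 and Rpl4 in 6 libraries each of liver, eWAT and gastrocnemius, with the median as a line. Rpl3l is at 335 to 472 in gastrocnemius and at most 3.60 in the other tissues, and Rps27l is at 51.9 to 82.7 in liver and at most 22.02 in eWAT.

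Beyond Rpl3l, members were called in both directions in each comparison. In liver against gastrocnemius 10 were higher and 9 lower (edgeR, adjusted p under 0.05), against 34.9% and 31.4% of 10851 genes, with a median log2 fold change of −0.07 (0.06 for all genes). In liver against eWAT 7 were higher and 3 lower, against 28.9% and 32.6%, with a median of −0.06 (−0.07). With library totals these counts were 2 and 40 (8401 genes called over all), and with library sizes from nuclear genes 8 and 0 (6649). In eWAT against gastrocnemius 9 were higher and 10 lower, against 41.1% and 26.3%, with a median of −0.03 (0.35). Here library totals gave 34 and 1 (8584 genes called over all), and library sizes from nuclear genes 6 and 15 (7207). Groups did not overlap in 3 higher and 1 lower gene in the first comparison (24.2% and 18.6% of all genes), in 4 and 0 in the next (19.5% and 22.4%) and in 5 and 3 in the last (26.8% and 16.3%). Over the same 77 genes the rank correlations of mean levels were 0.970, 0.970 and 0.953, which is a description over genes that share libraries. Without eWAT library S17 the counts were 9 and 2 for liver against eWAT and 8 and 15 for eWAT against gastrocnemius (6806 and 7381 genes called over all, against 6680 and 7318 with it). Without the 2 shallowest muscle libraries, S4 and S7, they were 7 and 7 for liver and 8 and 11 for eWAT (7340 and 7485 over all genes, against 7202 and 7318 with them).

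Rps27l, a p53-responsive copy of Rps27, was at 51.9, 74.8 and 82.7 TMM CPM in liver, 13.8, 17.8 and 22.02 in eWAT and 13.3, 31.4 and 52.6 in gastrocnemius. Liver was higher than eWAT (log2 fold change 2.01, edgeR adjusted p = 5.73e-09) without overlap, and higher than gastrocnemius (1.06), where the highest muscle library lay just above the lowest liver library. Rps4l was at 12.98, 20.9 and 32.1 in liver, 7.39, 19.7 and 24.9 in eWAT and 0, 4.78 and 7.37 in gastrocnemius. It was lower in muscle than in both (2.32 for liver over gastrocnemius, edgeR adjusted p = 1.2e-05, and 2.13 for eWAT over gastrocnemius).

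Rpl30, a large subunit gene, was lowest in eWAT, with 0.715, 1.66 and 2.85 TMM CPM there, 3.19, 7.54 and 12.7 in liver and 1.96, 8.11 and 9.95 in gastrocnemius (log2 fold change 2.01 for liver over eWAT, edgeR adjusted p = 0.000211, and −1.82 for eWAT over gastrocnemius). Rps2 and Rps18, both small subunit genes, were highest in muscle, with medians of 27.7 and 14.8 against 9.06 and 5.87 in eWAT (−1.62 and −1.60 for eWAT over gastrocnemius) and 18.02 and 8.85 in liver. With library totals the calls of Rpl30, Rps2 and Rps18 in eWAT against gastrocnemius were lost (edgeR adjusted p = 0.0876, 0.0536 and 0.119). Rpl13a, known for another role in translational control in inflammation, was higher in liver than in both other tissues (medians of 11.2, 6.38 and 3.59 in liver, eWAT and gastrocnemius). Rps19bp1 was lower in muscle (13.5, against 35.1 in liver and 33.3 in eWAT), and Rpl7l1 higher in liver (24.3, against 11.5 in eWAT and 8.73 in gastrocnemius). Against eWAT, library totals ended the call of Rpl7l1 (edgeR adjusted p = 0.948) and turned the direction of Rpl13a (−0.12). The call of Rpl13a against eWAT was also lost with no filter on low counts (log2 fold change 0.76, edgeR adjusted p = 0.0537). The stalk genes Rplp0 and Rplp1 were at medians of 22.5 to 35.5 and 41.3 to 51.0 over the tissues, with overlapping ranges, and neither passed the test in any of the 3 comparisons.

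Of the 25 tested genes with at least 90% unique stretches at the 3' end, 4 were higher and 2 lower in liver against gastrocnemius, 4 and 0 in liver against eWAT, and 2 and 3 in eWAT against gastrocnemius. Of the 28 others the counts were 6 and 7, 3 and 3, and 7 and 7. Of all 10851 genes tested, 34.9% and 31.4%, 28.9% and 32.6%, and 41.1% and 26.3% were called higher and lower, in the same order. The part of shared sequence in these calls was not tested.

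The rest of the translation machinery was followed with lists of genes. In round spermatids against morula, where 31.2% of all genes tested were lower and 55.4% higher (median 1.36), 29 of 36 factors of ribosome assembly were lower and 2 higher (median log2 fold change −3.02), from Dkc1, the pseudouridine synthase of small nucleolar particles (−8.80), to Nop10 (1.04). Of 34 initiation factors and poly(A) binding proteins, 24 were lower and 8 higher (−1.48), with Pabpc4 at −8.37 and Pabpc2 at 15.12. Of 9 elongation factors tested, 5 were lower and 2 higher (−1.10), with Eef1b2 at −4.74 and Eif5a2, a paralog of Eif5a, at 2.96. Of 9 regulators of TOP mRNA translation and ribosome synthesis, 6 were lower and 2 higher (−2.90), with Myc at −8.41 and Mtor at 2.76. Rack1, a ribosomal protein gene outside the rule, fell (−4.00).

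In sperm against round spermatids, where 51.9% of all genes were lower and 23.4% higher (median −1.24), 20 of 36 assembly factors were lower and 9 higher (median log2 fold change −0.83), 23 and 4 of the initiation list (−0.90) and 7 and 1 of the elongation list (−1.59). Of the 9 regulators 3 were lower and 3 higher (0.16), with Mtor at −3.06 and Myc at 6.01, while Rack1 was higher (2.42) and Fau lower (−5.69). Between offspring tissues the clearest member of these lists was Eef1a2, the elongation factor of muscle and neurons, with −10.41 for liver and −8.90 for eWAT over gastrocnemius, and Eef1a1, its widespread form, stood at 2.61 for liver over gastrocnemius. Assembly factors were lower than in muscle in 18 of 33 for liver (median −0.66) and in 20 for eWAT (−0.77), and higher in 2 each, against 31.4% lower and 34.9% higher of all genes for liver (median 0.06) and 26.3% and 41.1% for eWAT (median 0.35). The ribosomal protein genes had medians of −0.07 and −0.03 in the same comparisons.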

How the data were processed

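RNA-seq libraries of cauda sperm and morula (3 HFD and 3 LFD each) and of round spermatids, liver, eWAT and gastrocnemius (6 each) were used. The authors' pipeline, run in the Artificial Intelligence RNA-Seq software, consisted of BBDuk for trimming, STAR for mapping (GRCm38) and featureCounts for counting, and the raw counts they deposited were the starting point here. A library's group comes from its labels. For 3 morula samples the description names the other diet, and title and treatment were followed. Columns of round spermatids and offspring tissues were mapped to a tissue only, and 0 columns with per-sample values were left unused.

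The members and lists were chosen with earlier results of these data known. Counts of all genes were fitted by edgeR 4.0.16 (R 4.3.3): low genes were removed by filterByExpr (10 counts), libraries were scaled by TMM, and two-sided quasi-likelihood p-values were adjusted after Benjamini-Hochberg over all genes, with 0.05 as the threshold. Sperm diet and morula diet were each fitted alone, the Nextera tissues together, and the QuantSeq tissues together. TPM used the exon lengths of the tables. Counting intervals and counts of 3 as a floor cover counting error only. DESeq2 1.42.0, limma-voom (limma 3.58.1), other scalings, no filter, a test against a log2 fold change of 1, an adjusted p under 0.1, mtDNA genes left out, left-out libraries and a block by sperm number were the alternatives. Leaving out libraries S4, S7, S17, h4000 or all HFD sperm by name was chosen after seeing the data. The scripts were tested on simulated data. Named genes were the 3 or 5 largest rises and falls past the threshold per comparison (without any call, those with the lowest p), the X-linked members and their copies, the stalk genes, Rpsa, and paralogs with their parents. Genes outside this rule, such as those with an unadjusted p under 0.05 and those whose groups did not overlap, were named after their values were seen. Values of some genes that the rule would name are not reported here.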

Additional observations from a re-analysis of the deposited data

Results flagged for a closer look

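In 9 of 74 groups of 6 libraries tested, 1 library stood apart from the other 5 by Dixon's test, which chance alone would give in about 1 of 20 groups. In round spermatids library MUC14367 had a summed share of the ribosomal protein genes of 0.775% of all counts (the others 0.7314 to 0.7455%) and 63.74 TMM CPM of Rpsa (56.34 to 57.82). In liver, library S16 had 15.2 TMM CPM of Rpl39 (6.462 to 9.673) and library S24 50.68 of Rplp0 (15.51 to 24.95). In eWAT, library S17 was the highest in 4 measures: the summed share at 0.6079% (0.2655 to 0.3634%), Rpl4 at 627.1 TMM CPM (245.3 to 385.4), Rpl22 at 167.6 (103.4 to 119.2) and Rplp0 at 50.57 (25.02 to 33.46). S17 also had the lowest sum of adipocyte markers in eWAT, 24888 counts per 1000000 nuclear counts where the highest library had 50215. In the same unit it had the highest sums of late spermatid markers (113.7, tissue median 2.71) and of Sertoli and Leydig markers (444.7, median 66.9). Its sum of spermatogonia and spermatocyte markers was the lowest (82.2, median 165.1). The part of these marker sums in its ribosomal protein levels was not tested. In gastrocnemius, library S4, the shallowest, had 63.03 TMM CPM of Rplp0 (27.23 to 39.13).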

How the results depend on the processing

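With library totals in place of TMM, the median of all genes moved by −1.74 in sperm diet, 1.67 in the interaction, −0.92 in liver against eWAT, 0.96 in eWAT against gastrocnemius and −1.16 in sperm against round spermatids. Under it 27 members were lower in HFD sperm (median −1.93) and 48 had a higher morula effect in the interaction (median 1.91). In liver against eWAT 2 were higher and 40 lower (median −0.99), and in eWAT against gastrocnemius 34 and 1 (median 0.95, reversed). In sperm against round spermatids 9 were higher and 73 lower (median −2.81). Over all genes 3266, 3413, 8401, 8584 and 15583 were called there, in that order. Reversed genes were Rpl13a (−0.12), Rpl22 (−0.72), Rps25 (−0.0334), Rps4l (−0.72) and Rpsa (−0.90) in liver against eWAT, Rpl22 (0.72), Rpl22l1 (0.29), Rplp0 (0.87), Rplp2 (0.81) and Rps27l (0.00509) in eWAT against gastrocnemius, Rplp2 (−1.06) in sperm against round spermatids and, with limma-voom, Rps3a3 (1.07) there. Tested against a log2 fold change of 1, 2 higher and 2 lower remained in liver against gastrocnemius. In liver against eWAT 2 and 0 remained, and in eWAT against gastrocnemius 1 and 4. In round spermatids against morula 3 higher and 63 lower remained. Over all genes 4199, 3532, 4014 and 14963 were called under this test, in the same order. In liver against eWAT 8 were higher and 0 lower with nuclear genes only (6649 genes called over all). With no filter, 5 of 93 members were higher and 5 lower there (8913 genes called over all). At an unadjusted p under 0.05, 6 members were lower in HFD morulae. With only the 2 tissues fitted, the median in sperm against round spermatids was −1.26.

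The summed share of nuclear counts was 0.520% in sperm, 3.43% in morula, 0.244% in liver and 0.349% in gastrocnemius. With -ps pseudogenes and ribosomal protein genes outside the rule (such as Fau and Rack1) added it was 0.766% of all counts in round spermatids, 2.70% in morula, 0.229% in liver and 0.253% in gastrocnemius. The median level over the 93 genes was 51.0 in round spermatids, 191.2 in morula, 5.37 in liver, 5.37 in eWAT and 3.89 in gastrocnemius in TMM CPM. The causes of these shifts were not tested beyond the construction of each alternative.

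Leaving out single libraries gave medians of −0.66 (without h1000) to 0.00 (without l1000) in sperm diet and −0.10 to −0.01 in morula diet, with 0 members called. Over all genes 2 were called in morula diet without MH5. With a replicate block by sperm number the median was −0.27 with 0 members and 2 genes over all called, and the pairing was not borne out (correlations of 0.10 and −0.13). No block was fitted for the other tables, whose columns share no replicate numbers. NOISeq, named in the study's methods, was not run. In single genes, 52 values gained and 57 lost a call, and sign changes of genes not called either way were not counted as reversals.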
